A study of Mus musculus with 2 samples.

Results

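Transcripts of 47 genes of the lysosome, its proton pump and autophagy were compared between macrophages sorted from the lungs of infected wild-type mice and of mice lacking the receptors Axl and Mertk. The members were a list of gene names, 18 for lysosomal enzymes and other lysosomal proteins, 3 for transcription factors of the lysosome, 10 for subunits of the proton pump and 16 for autophagy, with most cathepsins left out. Of these, 46 were found among the 38293 rows of the normalised count table by name. Rubcn was found by its Ensembl identifier under the older symbol 1700021K19Rik. All 47 passed the minimum mean of 20 normalised reads that 11795 genes of the table passed.

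Both groups were 8-week-old C57BL/6 mice given 625 third-stage larvae of the roundworm Nippostrongylus brasiliensis under the skin, with lungs taken on day 7 of infection, and uninfected mice were not analysed here. One group was wild type (WT) and the other carried the genotype Axl-/-Mertk-/-, so that infection, age and strain were shared. The sort took CD45+CD11chiSiglecF+CD11blo cells, the surface pattern of the resident alveolar macrophage. There was 1 library per genotype, and the labels do not say whether it came from 1 mouse or from a pool, nor which part of Axl or Mertk is missing. With 1 library a group, no spread between animals can be given, no difference has a replicate check and no p-value was computed. The interval beside each ratio is an exact 95% interval from read counts, which covers counting error only and compares these libraries, not the genotypes.

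A macrophage that takes up an apoptotic cell delivers it to the lysosome, where acid hydrolases break down its proteins, sugars and lipids. The acid is made by the vacuolar proton pump, which has a membrane part (V0) that conducts protons and a cytosolic part (V1) that splits ATP. Autophagy brings the cell's own material to the same compartment, and part of its machinery also attaches LC3 to phagosomes that hold dead cells. The transcription factors TFEB, TFE3 and MITF bind a motif with the core CACGTG in promoters of many of these genes.

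Values are the deposited normalised read counts, from libraries of 15282882 reads in WT and 15519680 in Axl-/-Mertk-/-, in which 1 read is worth 1.21 and 1.18. Both targeted genes were lower in the library labelled Axl-/-Mertk-/-, with Axl at 15.5% of WT (15.0% to 16.1%) and Mertk at 43.8% (41.8% to 46.0%). The label of the sort fitted the marker genes: 15 of 15 alveolar macrophage markers were detected in both libraries, with Chil3 (chitinase-like protein Ym1) the most abundant, and they took 7.18% (7.17% to 7.19%) of WT reads and 6.27% (6.26% to 6.29%) of Axl-/-Mertk-/- reads (exact 95% binomial intervals). These identity markers differed between the libraries. Of the 15 alveolar markers 13 were lower in Axl-/-Mertk-/-, and of 12 markers of monocyte-derived and interstitial macrophages, with Apoe the most abundant, 11 were higher (summed levels 77483 and 95008 normalised reads). Summed marker levels were 2863 and 3251 for neutrophils (11 markers, Mmp8 highest), 1408 and 869 for eosinophils (6, Alox15) and 4433 and 4183 for dendritic cells (8, Irf4). They were 1107 and 1041 for B and plasma cells (8, Ighm), 2207 and 2485 for T, NK and innate lymphoid cells (11, Il7r) and 1133 and 1382 for endothelium and fibroblasts (10, Pecam1). Lung epithelium gave 10258 and 8975 (9, Cdh1) and red cells 249.8 and 753 (7, Hbb-bs). A large part of some sums came from 1 gene: Cdh1 had 6692 and 5916 normalised reads, Irf4 2293 and 1916, and Alox15 1213 and 724. Chil3 alone had 1156230 of the 1324450 normalised reads summed over the alveolar markers in WT, and 994755 of 1149560 in Axl-/-Mertk-/-. The alveolar shares of 7.18% and 6.27% are therefore mostly those of Chil3. Whether cells of the named types gave these reads was not tested. The part of these marker shifts in the results below was not tested. In bulk RNA, fewer cells of a type and less RNA per cell cannot be told apart.

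Promoter sequence is shown first. The members were chosen by function, and the motif is one known from promoters of many such genes. Its share among them is therefore a description and not an independent finding. RefSeq windows from 250 bases before to 50 bases after an annotated start (build GRCm38.p6) matched 37 of the 47 members, with 47 windows in all. The members without a window were Asah1, Npc1, Atp6v1b2, Atp6v1c1, Atp6v1h, Becn1, Pik3c3, Atg12, Atg16l1 and Map1lc3a. The search covered both strands for CACGTG, for TCACGTG and for the palindrome TCACGTGA, each of which contains the ones before it. CACGTG was found in 13 of 37 members (35.1%), against 8.09% of all 27025 genes with a window and 12.0% of the 8890 of them that were measured in these libraries. TCACGTG was found in 12 of 37 (32.4%), against 4.29% and 7.09%, and TCACGTGA in 7 of 37 (18.9%), against 1.12% and 2.20%. Counted by window, TCACGTGA was in 14.9% of the members' windows and in 0.974% of all 32851. A match describes these letters and is not evidence of binding. The following stretches, on the gene's strand with the TCACGTGA match in capitals, are shown because they hold the longest form found among the members.
Ctsa: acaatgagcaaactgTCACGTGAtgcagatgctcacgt
Mcoln1: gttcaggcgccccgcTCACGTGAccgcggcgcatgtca
Atp6v0d1: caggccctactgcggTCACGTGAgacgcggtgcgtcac
Atp6v1a: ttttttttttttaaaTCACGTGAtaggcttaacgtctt
Atg3: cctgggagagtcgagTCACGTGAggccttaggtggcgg
Atp6v0e: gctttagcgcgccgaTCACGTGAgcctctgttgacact
Gla: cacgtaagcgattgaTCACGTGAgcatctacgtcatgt

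The stretch of Ctsa, the carboxypeptidase cathepsin A, is chr2:164833745-164833782 on the plus strand, and its match begins 13 bases before the start. The stretch of Mcoln1, the lysosomal calcium channel, is chr8:3500458-3500495 on the plus strand, and its match begins 46 bases before the start. The stretch of Atp6v0d1, a V0 subunit, is chr8:105566046-105566083 on the minus strand, and its match begins 4 bases before the start. The stretch of Atp6v1a, the catalytic V1 subunit, is chr16:44139369-44139406 on the minus strand, and its match begins 132 bases before the start. The stretch of Atg3, an enzyme of LC3 attachment, is chr16:45158742-45158779 on the plus strand, and its match begins 72 bases before the start. The stretch of Atp6v0e, a V0 subunit, is chr17:26676383-26676420 on the plus strand, and its match begins 3 bases into the transcript. The stretch of Gla, alpha-galactosidase A, is chrX:134601211-134601248 on the minus strand, and its match begins 228 bases before the start. In each case the start is that of the RefSeq window, which need not be the main start of the gene. The annotated genes Ctsa and Atp6v0e begin upstream of their stretches, at 164832873 and 26663231. Atp6v1a, on the minus strand, also begins upstream of its stretch, at 44139705.

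Among the 37 members, TCACGTG or a longer form was found in 4 of 7 proton pump genes, in 5 of 16 genes for lysosomal enzymes and other lysosomal proteins, in 3 of 11 autophagy genes and in 0 of 3 transcription factors. The members that hold it had ratios on both sides of 1. The 12 with it had a median log2 ratio of -0.04, and 8 of them had a ratio of Axl-/-Mertk-/- to WT below 1. The 25 without it had a median of -0.01, and 14 of them had a ratio below 1. The ratios of these 12 ran from 0.899 for Atp6v1a to 1.05 for Lamp1.

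The members covered a wide range of levels. Together they took 3.34% (3.33% to 3.35%) of WT reads and 3.30% (3.29% to 3.31%) of Axl-/-Mertk-/- reads, most of it from Psap, the precursor of the saposins that present lipids to lysosomal enzymes (GRCm38 chromosome 10, 60277627 to 60302597). Psap had 329203 normalised reads (WT) and 323422 (Axl-/-Mertk-/-), which is 1.78% (1.78% to 1.79%) and 1.77% (1.76% to 1.77%) of all reads. Per kb of merged exons, the scale on which different genes were compared, Psap stood first with 119972 and 117865 normalised reads per kb. It was followed by Lamp1, an abundant glycoprotein of the lysosomal membrane (11515 and 12049 normalised reads per kb). Grn, which encodes progranulin, and Hexa, the alpha subunit of beta-hexosaminidase, came next and changed places between the libraries (7094 and 6995 per kb for Grn, 6747 and 7166 for Hexa). Gabarap was the highest autophagy gene in both (4504 and 4521 per kb). At the low end stood Atg16l1 (69.1 and 69.5 per kb), which directs LC3 to membranes, and Rubcn (76.8 and 70.2 per kb). Between the libraries 1 member moved by more than 2 places in this order, Atp6v1h, by 3 places.

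**Figure D1:**
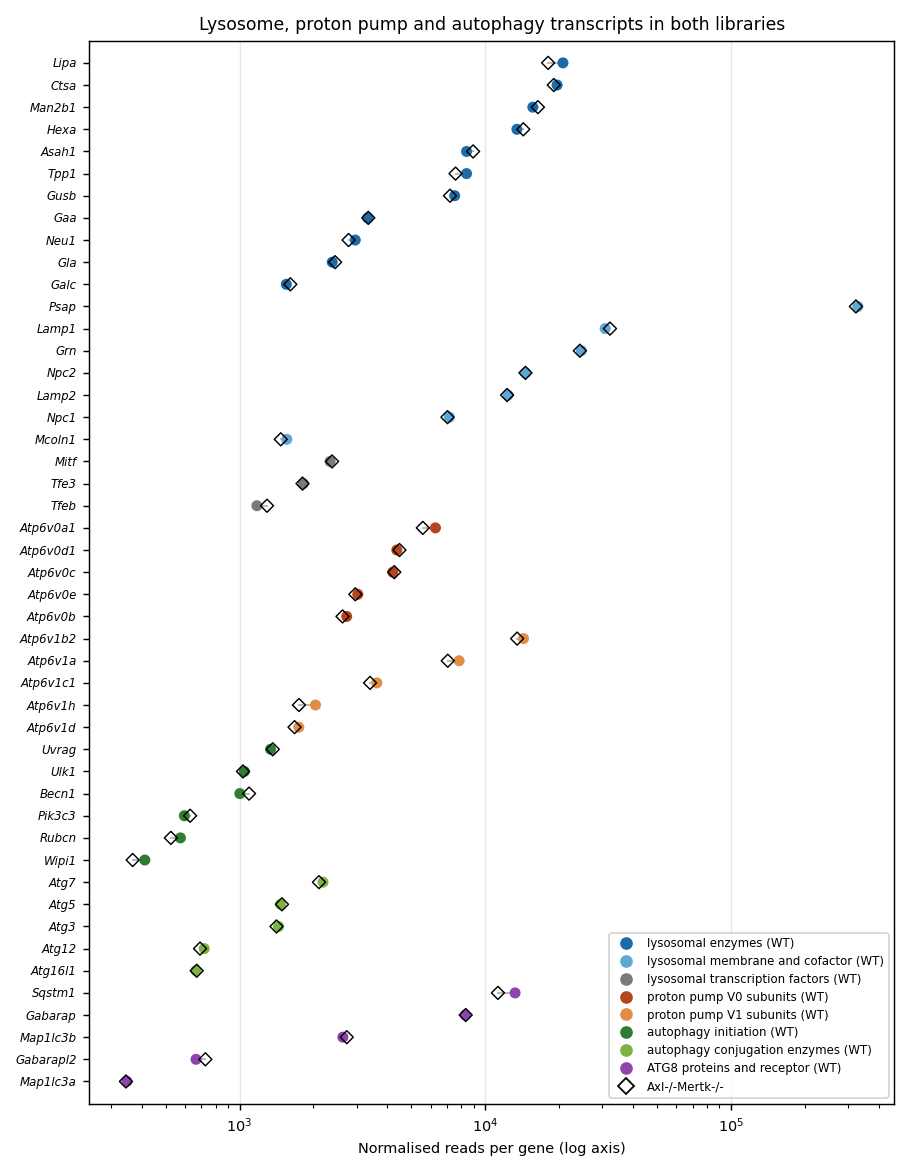
Normalised reads per gene (log axis) of the 47 members, grouped by role, with WT as filled circles and Axl-/-Mertk-/- as open diamonds. Levels run from about those of Map1lc3a (348 and 345) to those of Psap (329203 and 323422), and the pair of symbols overlaps for most genes.

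The levels of the members were alike in the 2 libraries. None of the 47 was 1.2-fold higher or lower in Axl-/-Mertk-/-, on the scale of log2 ratios with a pseudocount of 10, whereas 16.9% of all measured genes were past that fold, 8.37% higher and 8.50% lower. Among the 6675 genes whose mean lay in the members' range (346 to 326313 normalised reads), 5.74% were past it, 2.58% higher and 3.16% lower. The extremes were Sqstm1 at 0.852 and Tfeb at 1.10, and 41 of 47 members lay within 10% of WT. The median log2 ratio was -0.02 over the members (28 lower, 19 higher) and -0.0047 over all measured genes, of which 51.2% had a ratio below 1. Between the quartiles the log2 ratios ran from -0.07 to 0.03 for members and from -0.11 to 0.10 for all measured genes. For the genes in the range of the members they ran from -0.08 to 0.07. The median absolute log2 ratio was 0.06 for members, 0.07 for genes in their range and 0.10 for all measured genes. The counting interval lay above 1 for 5 members (10.6%, against 10.1% of all measured genes) and below 1 for 12 (25.5%, against 11.4%). Counting intervals are narrower for abundant genes, and among the genes in the range of the members it lay above 1 for 12.4% of genes and below 1 for 15.1%.

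**Figure D2:**
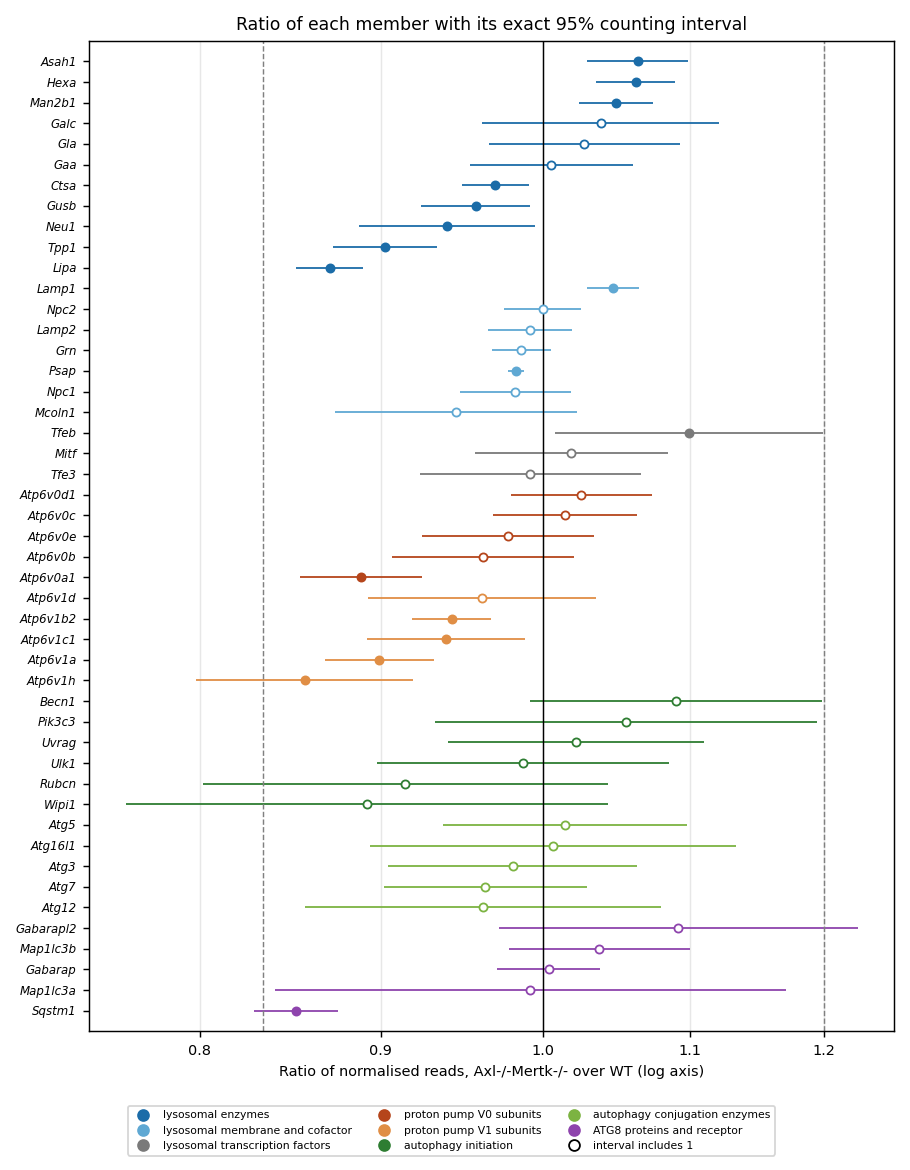
Ratio of normalised reads, Axl-/-Mertk-/- over WT (log axis), for each of the 47 members by role, with exact 95% counting intervals as bars, open circles where the interval includes 1 and dashed lines at 1.2-fold. The 5 V1 members all lie below 1, whereas lysosomal enzymes lie on both sides and all points stay between the dashed lines.

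The lysosomal enzymes went both ways. Of 11 enzymes 6 were higher and 5 lower in Axl-/-Mertk-/-. The median log2 ratio was 0.01, and the counting interval lay above 1 for 3 and below 1 for 5, where 10.1% and 11.4% of all measured genes did so (12.4% and 15.1% in the range of the members). The lowest ratio was that of Lipa, lysosomal acid lipase, which frees cholesterol and fatty acids from lipoprotein and cell lipids (chromosome 19, 34492318 to 34527474). It had 20742 normalised reads (WT) and 18053 (Axl-/-Mertk-/-), at a ratio of 0.870 (0.852 to 0.890). Tpp1, a protease that removes tripeptides from the ends of proteins (chromosome 7, 105744811 to 105752235), had 8398 normalised reads (WT) and 7578 (Axl-/-Mertk-/-), at a ratio of 0.902 (0.872 to 0.934). Lipa was thus at 87.0% of the WT level and Tpp1 at 90.2%.

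Neu1, its partner Ctsa and Gusb were lower by less. Neu1, the lysosomal sialidase, had 2959 normalised reads (WT) and 2779.9 (Axl-/-Mertk-/-), at a ratio of 0.939 (0.887 to 0.994). Ctsa, the protective protein that holds Neu1 in its complex, had 19629 normalised reads (WT) and 19029.6 (Axl-/-Mertk-/-), at a ratio of 0.969 (0.949 to 0.991). Gusb, beta-glucuronidase, had 7517 normalised reads (WT) and 7195 (Axl-/-Mertk-/-), at a ratio of 0.957 (0.924 to 0.992). The intervals of all 3 include 1 when the size factors are made from these 2 libraries alone. The exons of Ctsa overlap over 10.5% of their length with Pltp on the opposite strand, a gene at 3670.0 and 4246 normalised reads, and the strand setting of the counting is not given in the sources used here.

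For 3 enzymes the interval lay above 1. Asah1, acid ceramidase (chromosome 8, 41340197 to 41374773), had 8401 normalised reads (WT) and 8933 (Axl-/-Mertk-/-), at a ratio of 1.06 (1.03 to 1.10). Hexa, which with its activator degrades the ganglioside GM2 (chromosome 9, 59539540 to 59565109), had 13467 normalised reads (WT) and 14303 (Axl-/-Mertk-/-), at a ratio of 1.06 (1.04 to 1.09). Man2b1, the lysosomal alpha-mannosidase (chromosome 8, 85083270 to 85098282), had 15639.5 normalised reads (WT) and 16402 (Axl-/-Mertk-/-), at a ratio of 1.05 (1.02 to 1.07). These 3 were at 105% to 106% of the WT level. The remaining 3 had intervals that include 1. They were Gla, alpha-galactosidase A (2385 and 2449 normalised reads, ratio 1.03 (0.965 to 1.09)), Galc, galactosylceramidase (1551 and 1610.1, ratio 1.04 (0.961 to 1.12)) and Gaa, the acid glucosidase of glycogen (3326 and 3344, ratio 1.01 (0.954 to 1.06)).

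Proteins of the lysosomal membrane, lipid transport and cofactors had a narrower range of ratios (0.945 to 1.05) than the lysosomal enzymes (0.870 to 1.06). Of 7 members 6 were lower and 1 higher, and their median log2 ratio was -0.02. Lamp1 (chromosome 8, 13159161 to 13175338) was the higher one, with 30802 normalised reads (WT) and 32230.3 (Axl-/-Mertk-/-), at a ratio of 1.05 (1.03 to 1.06). Its relative Lamp2, which also serves the fusion of autophagosomes with lysosomes, had 12391 normalised reads (WT) and 12284 (Axl-/-Mertk-/-), at a ratio of 0.991 (0.965 to 1.02) that includes 1. Psap, the most deeply counted member with 272780 and 273988 reads, had a ratio of 0.982 (0.977 to 0.988), a narrow interval just below 1. It lay below 1 under each of the 4 scalings, with a log2 ratio of -0.03 as deposited and -0.01 with factors from these 2 libraries.

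The cholesterol exporters Npc1 and Npc2 did not differ by more than counting error. Npc2, the soluble carrier, had 14598 normalised reads (WT) and 14594 (Axl-/-Mertk-/-), at a ratio of 0.9997 (0.975 to 1.03), and Npc1, the membrane transporter that takes cholesterol from it, had 7153 and 7025, at a ratio of 0.982 (0.947 to 1.02). Grn, whose protein is cut to granulins in the lysosome, had 24646 normalised reads (WT) and 24301 (Axl-/-Mertk-/-), at a ratio of 0.986 (0.967 to 1.01). Mcoln1, the calcium channel TRPML1 of the lysosomal membrane, had 1558 normalised reads (WT) and 1472 (Axl-/-Mertk-/-), at a ratio of 0.945 (0.873 to 1.02).

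Of the transcription factors, Tfeb had the highest ratio of all members. Tfeb (chromosome 17, 47737030 to 47792419) had 1177 normalised reads (WT) and 1294 (Axl-/-Mertk-/-), at a ratio of 1.10 (1.01 to 1.1998) whose interval came close to 1. With a 99% interval the lower bound was 0.981 and the interval included 1. Mitf had 2338 normalised reads (WT) and 2381 (Axl-/-Mertk-/-), at a ratio of 1.02 (0.956 to 1.08), and Tfe3 had 1819.9 normalised reads (WT) and 1805 (Axl-/-Mertk-/-), at a ratio of 0.992 (0.923 to 1.07). Per kb, Mitf was the most abundant of the 3 in both libraries, with 377 and 384 normalised reads per kb against 208 and 228 for Tfeb and 197 and 195 for Tfe3. The activity of these factors is controlled largely by phosphorylation and movement into the nucleus, which transcript levels do not measure.

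The proton pump was the class with the lowest median, at -0.07 in log2, with 8 of 10 subunits lower in Axl-/-Mertk-/-. The counting interval lay below 1 for 5 of 10 and above 1 for 0, where 11.4% and 10.1% of all measured genes did so, and 15.1% and 12.4% of those in the range of the members. In pooled reads the 10 subunits had a ratio of 0.942 (0.929 to 0.955). The same pooled ratio was 0.978 (0.968 to 0.987) for the lysosomal enzymes and 0.950 (0.935 to 0.965) for autophagy, whose interval overlaps that of the pump. In the autophagy class the ATG8 proteins and receptor had a pooled ratio of 0.929 (0.912 to 0.948). Sqstm1 alone had 13242 of their 25194 normalised reads in WT and 11278 of 23417 in Axl-/-Mertk-/-. Of these 5 genes 3 had a ratio above 1, and for 4 the interval included 1. The pooled ratio was 1.01 (0.966 to 1.05) for the genes that start autophagy and 0.983 (0.946 to 1.02) for the enzymes that attach LC3. The members were chosen by function and their directions were not tested against other groups, so the lower median of the pump is a description of these 2 libraries.

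Of the V1 part, which splits ATP, all 5 members were lower under each scaling tried, and the median log2 ratio of the 5 was -0.09. Atp6v1h, the regulatory H subunit (chromosome 1, 5070018 to 5162529), had 2038 normalised reads (WT) and 1746 (Axl-/-Mertk-/-), at a ratio of 0.856 (0.798 to 0.919). Atp6v1a, the catalytic A subunit (chromosome 16, 44085402 to 44139705), had 7836 normalised reads (WT) and 7045 (Axl-/-Mertk-/-), at a ratio of 0.899 (0.868 to 0.931). Atp6v1b2, the B subunit that forms the ATP-splitting head together with A, had 14326 normalised reads (WT) and 13499 (Axl-/-Mertk-/-), at a ratio of 0.942 (0.918 to 0.967). These 3 were at 85.6% to 94.2% of the WT level.

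Of the other V1 subunits, Atp6v1c1, whose protein joins V1 to V0, had 3622 normalised reads (WT) and 3399.6 (Axl-/-Mertk-/-), at a ratio of 0.939 (0.892 to 0.988). With a 99% interval its upper bound was 1.004. Atp6v1d, part of the central rotor, had 1743 normalised reads (WT) and 1675 (Axl-/-Mertk-/-), at a ratio of 0.961 (0.893 to 1.03) that includes 1.

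Of the V0 members 3 of 5 were lower, and their median log2 ratio was -0.03. Atp6v0a1, an isoform of the large subunit that forms the proton path (chromosome 11, 101009452 to 101063719), had 6274 normalised reads (WT) and 5575 (Axl-/-Mertk-/-), at a ratio of 0.889 (0.854 to 0.924). It was the only V0 member whose interval excluded 1. Atp6v0b and Atp6v0c, whose proteins form the proton-carrying ring, had 2731 and 2626 normalised reads with a ratio of 0.962 (0.907 to 1.02) and 4206 and 4267 with a ratio of 1.01 (0.968 to 1.06). Atp6v0c has a processed pseudogene, Atp6v0c-ps2, that is 99.8% identical over 465 bases and had 10.9 and 13.0 normalised reads. Another, Atp6v0c-ps1, is 97.2% identical over 465 bases and had no value here. Some reads may be split between Atp6v0c and these copies. Atp6v0d1 had 4369 and 4479 normalised reads, at a ratio of 1.03 (0.979 to 1.07), and the small subunit Atp6v0e had 3030.4 and 2962, at a ratio of 0.977 (0.924 to 1.03).

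**Figure D3:**
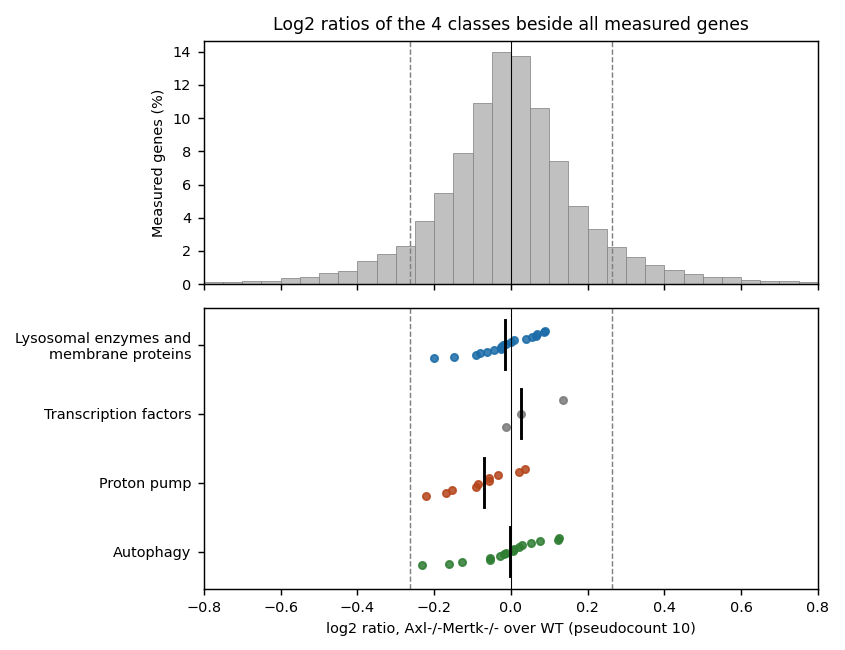
Log2 ratios (Axl-/-Mertk-/- over WT, pseudocount 10), with the share of all 11795 measured genes in bins above and each member as a point below, spread vertically only for legibility, with class medians as black bars and dashed lines at 1.2-fold. The proton pump median lies at -0.07, that of autophagy at -0.0032, and no member passes a dashed line.

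Several pump subunits are made from alternative genes, and isoforms known from macrophages and osteoclasts were the most abundant for 2 of them. Of transcripts for the d subunit, 77.2% in WT and 74.9% in Axl-/-Mertk-/- per length came from Atp6v0d2, an isoform of macrophages and osteoclasts that is not among the members, and the rest from Atp6v0d1. Of transcripts for the a subunit, 73.1% and 75.0% came from Tcirg1, the a3 isoform, 22.8% and 20.9% from Atp6v0a1 and 4.16% and 4.05% from Atp6v0a2. Atp6v0a4, the kidney isoform, had 0 reads in both libraries. A count of 0 allows a level of up to 3.62 (WT) or 3.54 (Axl-/-Mertk-/-) normalised reads. The kidney B isoform Atp6v1b1 had 1 read (WT) and 5 reads (Axl-/-Mertk-/-), against 11871 and 11436 for Atp6v1b2. Atp6v0d2 had 22438 normalised reads (WT) and 20228 (Axl-/-Mertk-/-), at a ratio of 0.902 (0.883 to 0.920), whereas Tcirg1 had 14128 and 14047, at a ratio of 0.994 (0.969 to 1.02) that includes 1.

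The remaining subunits and accessory proteins were listed apart from the members, and 11 of 17 were measured. Of these 11, 10 had a ratio below 1 and 1 above. The median log2 ratio was -0.06, and the interval lay below 1 for 3. Besides Atp6v0d2 these were the V1 subunit Atp6v1e1 (4607 and 4199.9, ratio 0.912 (0.871 to 0.955)) and Atp6ap2, an accessory protein also known as the prorenin receptor (5852 and 5426, ratio 0.927 (0.890 to 0.966)). The assembly factor Tmem199 had 294 and 267, at a ratio of 0.906 (0.753 to 1.09) that includes 1. The V1 subunit Atp6v1g2 was the one above 1 (49.5 and 51.9, ratio 1.05 (0.670 to 1.65)), and Atp6v1g1 was level (2320.8 and 2320.7, ratio 0.99998 (0.939 to 1.07)). Over all 21 measured pump genes, members and others, 18 had a ratio below 1 as deposited (6 of 8 for V0, 8 of 9 for V1 and 4 of 4 accessory proteins) and 15 when scaled by total reads or by factors from these 2 libraries. The interval lay below 1 for 8 and above 1 for 0 under each of the 4 scalings. As deposited, 51.2% of all measured genes had a ratio below 1. The interval lay below 1 for 11.4% of them and above 1 for 10.1%. Among genes in the range of the members these interval shares were 15.1% and 12.4%. The directions of the pump genes were not tested against other groups.

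**Figure D4:**
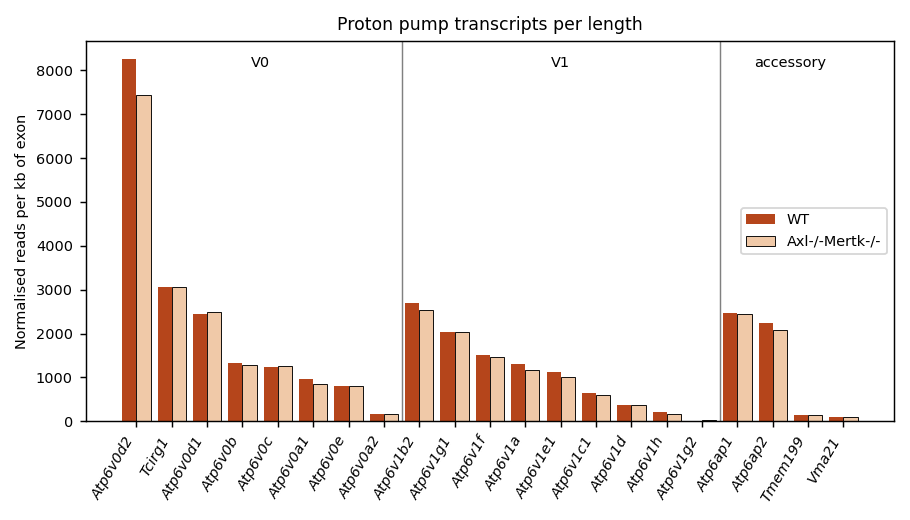
Normalised reads per kb of merged exons for the 21 measured proton pump genes in WT and Axl-/-Mertk-/-, ordered by WT level within V0, V1 and accessory proteins. Atp6v0d2 stands highest (8261 and 7448 per kb), and each pair of bars is close in height.

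Autophagy genes showed no common direction. Of 16 members 8 were lower and 8 higher. The median log2 ratio was -0.0032, and the interval excluded 1 for 1 of them, against 21.5% of all measured genes and 27.5% of those in the range of the members. The 1 was Sqstm1, which encodes p62, a receptor that carries ubiquitinated cargo into autophagosomes and is itself degraded there (chromosome 11, 50199366 to 50210827). Sqstm1 had 13242 normalised reads (WT) and 11278 (Axl-/-Mertk-/-), the lowest ratio of all 47 members at 0.852 (0.829 to 0.875). Its exons overlap over 17.3% of their length with Mrnip on the opposite strand, a gene at 64.0 and 54.3 normalised reads. Counting intervals were wider in the autophagy class. Their median half-width in log2 was 0.137, against 0.071 for the proton pump and 0.049 for the lysosomal enzymes. A difference of a given size is thus less often outside the interval here than in those classes.

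The genes that start autophagy were within counting error of 1 in all 6 cases. Ulk1, the kinase that starts the process, had 1046 normalised reads (WT) and 1033 (Axl-/-Mertk-/-), at a ratio of 0.987 (0.898 to 1.09). Becn1 and Pik3c3, core subunits of the lipid kinase complex, had 1003 and 1093 with a ratio of 1.09 (0.991 to 1.198) and 596 and 629 with a ratio of 1.06 (0.932 to 1.195). The interval of Becn1 lay above 1, with a lower bound of 1.002, when the size factors were made from these 2 libraries. Uvrag, a further subunit of that complex, had 1337 and 1366, at a ratio of 1.02 (0.940 to 1.11). Rubcn, which encodes Rubicon, restrains autophagosome maturation and is needed to attach LC3 to phagosomes, and it had 574 and 525 normalised reads, at a ratio of 0.914 (0.802 to 1.04). Wipi1, which reads the lipid made by the complex, had 412 and 367, at a ratio of 0.892 (0.763 to 1.04).

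The enzymes that attach LC3 to membranes lay between 0.962 and 1.01, all 5 with intervals that include 1. Atg7, which activates LC3 and Atg12, had 2187 and 2106 normalised reads, at a ratio of 0.963 (0.902 to 1.03). Atg3, which passes LC3 on to its lipid, had 1442 and 1414, at a ratio of 0.981 (0.904 to 1.06). Atg12, Atg5 and Atg16l1 form the complex that completes the step. Atg5 had 1468 and 1489, at a ratio of 1.01 (0.937 to 1.10), Atg12 had 718 and 691, at a ratio of 0.962 (0.856 to 1.08), and Atg16l1 had 665 and 669, at a ratio of 1.01 (0.894 to 1.13).

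Among the ubiquitin-like proteins that coat the autophagosome, Gabarap was the most abundant per length. It stood at 4504 and 4521 normalised reads per kb, against 350.5 and 364 for Map1lc3b, 294 and 292 for Map1lc3a and 286 and 312 for Gabarapl2. The size of this gap depends on the merged exon length, which was 1844 bases for Gabarap and 7517 for Map1lc3b. Other lengths were not tried for these genes. Between the libraries Gabarap had 8306 and 8336 normalised reads, at a ratio of 1.004 (0.971 to 1.04). Map1lc3b (LC3B) had 2635 and 2733, at a ratio of 1.04 (0.978 to 1.10), and Gabarapl2 had 665 and 726, at a ratio of 1.09 (0.972 to 1.23). Both have processed pseudogenes that are at least 96% identical over at least 300 bases. The 4 of Map1lc3b had from 0 to 2.36 normalised reads, and the 3 of Gabarapl2 were not analysed here. Map1lc3a (LC3A) was the least counted member, with 288 and 292 reads and a ratio of 0.992 (0.840 to 1.17), and differences inside that interval were not detectable at this depth.

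The wider pathway, from lists of 132 further genes, was also close to 1. Of 124 measured genes 80 were lower and 44 higher. The median log2 ratio was -0.03, and 3 were past 1.2-fold with the pseudocount of 10. This compares with 16.9% of all measured genes and 5.74% of those in the range of the members, below which some of the 124 lie. These were Bnip3, a receptor for the autophagy of mitochondria (186 and 229, ratio 1.23 (0.992 to 1.53)), Atg10, the enzyme that joins Atg12 to Atg5 (171 and 133, ratio 0.778 (0.603 to 1.004)), and Rragd, a Rag GTPase of nutrient sensing (123 and 95.6, ratio 0.777 (0.573 to 1.05)). The intervals of these 3 include 1. Over the 124 genes the interval lay below 1 for 21 and above 1 for 9. These counts, and those for each list below, are to be set beside the 11.4% and 10.1% of all measured genes. Among genes in the range of the members the shares were 15.1% and 12.4%.

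Other lysosomal hydrolases and activators were split, with 16 of 30 lower and 14 higher and a median log2 ratio of -0.03. The interval lay below 1 for 9 and above 1 for 6. The largest differences were those of Smpd1, acid sphingomyelinase (605 and 503 normalised reads, ratio 0.832 (0.729 to 0.948)), and Aga, which cuts the link between sugar chains and asparagine (426 and 358, ratio 0.840 (0.718 to 0.982)). Smpd1, at a log2 ratio of -0.26 with the pseudocount, was just short of 1.2-fold on that scale, and the intervals of both genes lay below 1. Hgsnat (1229 and 1087, ratio 0.885 (0.809 to 0.968)) and Naglu (2577 and 2301, ratio 0.893 (0.839 to 0.950)) both degrade heparan sulphate. Other lysosomal membrane and sorting proteins were lower in 16 of 25 and higher in 9, with a median of -0.02 and the interval below 1 for 2 and above 1 for 2. Among them Igf2r, the receptor that sorts enzymes carrying mannose 6-phosphate, had 1966 and 1677, at a ratio of 0.853 (0.794 to 0.917). Laptm4b had 378 and 446 and a ratio of 1.18 (1.01 to 1.38), Mfsd8 had 255 and 212 and a ratio of 0.834 (0.680 to 1.02), and the cation channel gene Tpcn1 had 513 and 577 and a ratio of 1.13 (0.986 to 1.28).

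Other autophagy genes were lower in 24 of 39 and higher in 15, with a median of -0.03 and the interval below 1 for 6 and above 1 for 1. Atg101, which binds the Ulk1 complex, had 358 and 413 normalised reads, at a ratio of 1.15 (0.985 to 1.35), and Stx17, the fusion protein of the autophagosome, had 410.3 and 472, at a ratio of 1.15 (0.993 to 1.33). Genes of lysosomal nutrient sensing, which hold TFEB in the cytosol when amino acids are plentiful, were lower in 14 of 19 and higher in 5, with a median of -0.04 and the interval below 1 for 1 and above 1 for 0. The exception to counting error was Akt1s1 (671 and 574, ratio 0.855 (0.755 to 0.967)), an inhibitor of mTORC1 that lies within 20 Mb of the deleted Axl gene. No member of the main list lies within 20 Mb of Axl or Mertk. Lamtor5, a Ragulator subunit, had 599 and 647, at a ratio of 1.08 (0.955 to 1.22), and Rheb, the GTPase that activates mTORC1, had 1588 and 1479, at a ratio of 0.931 (0.861 to 1.01).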

How the data were processed

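RNA was sequenced from 2 libraries of sorted lung macrophages, 1 per genotype, made strand-specific after oligo-dT selection per the labels' protocols. The deposited table holds a signal: gene-level read counts scaled by the authors with 1 size factor for each library. TopHat2, DESeq2 and GRCm38 are named in the submitters' processing notes. The sources used here give neither the counting program nor its strand setting or version. Whole reads were recovered as multiples of the smallest value in each library, within a tolerance of 1e-06, and 100% of values came out whole (size factors 0.829 and 0.847). Columns of other samples numbered 0, and 1585 rows had no symbol. The deposited factors (Axl-/-Mertk-/- over WT 1.022) differ from median-of-ratios factors made from these 2 libraries alone (1.011). The deposited scaling therefore does not come from these 2 libraries alone by that method. Which libraries it was made with is not given in the sources used here.

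With 1 library per group no test could be fitted. The log2 ratio used a pseudocount of 10, which understates the ratio of low genes, and genes with a mean of at least 20. Ratios printed with intervals are without it, and intervals are exact (Clopper-Pearson, 95%) from recovered reads, which are not independent molecules. A gene with 0 reads allows up to 3. A fold of 1.2 replaced a test. The computations were checked on simulated data. Pathway genes were named by size of ratio (4 per list, mean of at least 50) and from marker lists the most abundant gene. Gene lists and members were chosen with earlier results of these data known. Genes that share exons with members were named after their overlap was found, and pump isoforms after their values were seen.

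Positions and merged exon lengths came from GENCODE vM21 for GRCm38. Near copies were searched with BLAST+ 2.17.0 at 96% identity over 300 bases. Python 3.11.15, numpy 2.4.6, pandas 2.3.3, SciPy 1.17.1 and matplotlib 3.10.9 were used. Alternatives covered the pseudocount, scaling, minimum mean, near copies, genes near the deleted loci, mean against median and the confidence level.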

Additional observations from a re-analysis of the deposited data

How the results depend on the processing

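No member passed 1.2-fold in either direction under any pseudocount, scaling, minimum mean or omission tried. The median log2 ratio of the proton pump ranged from -0.09 to -0.06 and that of its V1 subunits from -0.09 to -0.08. The mean over the V1 members was -0.12. The median of the lysosomal enzymes stayed positive (0.0058 to 0.023), whereas their mean over members was -0.02. The median of autophagy (-0.02 to 0.01) took either sign. It was positive with factors from these 2 libraries and by total reads. Scaling moved the median of all measured genes to between -0.0067 and 0.011. With factors from these 2 libraries 6 members had an interval above 1 and 9 below, and with a 99% interval 4 and 9. Ctsa, Neu1, Gusb and, for 99%, Tfeb and Atp6v1c1 were those that no longer excluded 1 in 1 or more of these settings. Transcription factors with a ratio below 1 numbered 0 with those factors, Tfe3 being within counting error. The Psap log2 ratio was -0.01 with those factors and -0.02 by total reads. With the length of the longest transcript, settings chosen after seeing the data, Atp6v0d2 gave 76.7% of d subunit transcripts in WT and 74.3% in Axl-/-Mertk-/-. No replicate could be left out. No paired analysis was possible because each group holds 1 library.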
